A study of Mus musculus with 36 samples.

Results

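The acute phase proteins are plasma proteins that the liver makes in larger amounts during inflammation, and 10 of their genes were followed here: the serum amyloid A genes Saa1, Saa2, Saa3 and Saa4, the orosomucoid genes Orm1, Orm2 and Orm3, lipocalin 2 (Lcn2), haptoglobin (Hp) and hemopexin (Hpx). They were chosen by name, and all 10 were found among the 49315 genes of the table. Polyadenylated RNA had been sequenced from 36 livers of male mice, 11 to 12 weeks old at collection, in 9 groups of 4. Residue 441 of LXRalpha, the liver X receptor alpha that oxidised cholesterol activates, was tryptophan on both alleles (W/W), tryptophan on 1 and phenylalanine on the other (W/F), or phenylalanine on both (F/F). The change was made by CRISPR editing of the gene, so that the labels restrict it to no cell type. Each genotype was kept on chow, or fed for 4 weeks on a fat- and cholesterol-rich diet that promotes metabolic dysfunction-associated steatohepatitis (MASH). During the last 2 of those weeks the mice on the diet received either vehicle or the synthetic LXR agonist T0901317 (10 mg/kg), once a day by gavage. The groups given vehicle or T0901317 therefore all carry the MASH diet. The chow livers came from a separate cohort, so that in every comparison with chow the diet and the cohort cannot be told apart. Nothing in the labels ties mice to litters or dates, and p-values measure the spread between these livers.

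In the acute phase response, macrophage-derived interleukin 6, interleukin 1 and tumour necrosis factor act on hepatocytes through STAT3, NF-kappaB and C/EBP factors and raise the transcription of secreted plasma proteins. Saa1 and Saa2 encode apolipoproteins of high-density lipoprotein that are among the most inducible of these proteins. Saa3 is also made by macrophages and adipose tissue, and Saa4 is the constitutive member of the family. Orosomucoids are acid glycoproteins that carry drugs and lipids in plasma. Lcn2 binds iron-loaded bacterial siderophores and is both a secreted product of stimulated hepatocytes and a granule protein of neutrophils. Hp and Hpx capture free haemoglobin and haem. Ligand-bound LXR is known to restrain inflammatory transcription in macrophages and in liver.

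In the mouse annotation GENCODE M21 (GRCm38) the amyloid genes form a cluster on chromosome 7, with Saa3 at chr7:46711998-46715700, Saa4 at chr7:46727998-46732603 and Saa1 at chr7:46740497-46742980 on the minus strand and Saa2 at chr7:46751790-46754313 on the plus strand. The orosomucoid genes lie in a row on the plus strand of chromosome 4, with Orm1 at chr4:63344560-63348163, Orm3 at chr4:63356162-63359511 and Orm2 at chr4:63362449-63365878. Lcn2 is at chr2:32384633-32388252, Hp at chr8:109575128-109579172 and Hpx at chr7:105591613-105600137, all on the minus strand. Coordinates span whole genes, exons and introns together. Family members share sequence, which bears on how reads were divided among them. Of the 50-base stretches in the transcripts of Saa1, 31.1% also occurred in Saa2, and 20.4% of those of Orm1 occurred in Orm2. Orm3 shared 3.59% with Orm2, and Lcn2, Hp and Hpx shared none with any other gene. The values of Saa1 against Saa2 and of Orm1 against Orm2 are therefore uncertain to that extent, and family sums are given as well.

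Upstream sequences were taken from RefSeq (GRCm38.p6), in which 8 of the 10 genes had an entry and Orm1 and Hp had none. The 250 bases before each start were searched on both strands. The C/EBP motif TTGCNCAA occurred in 6 of the 8 windows (Saa1, Saa2, Saa4, Orm2, Orm3 and Lcn2) and in 2.61% of the 32851 windows of the same length over all genes. The STAT motif TTCNNNGAA (7.02% of all windows), the NF-kappaB consensus (7.25%) and the LXR direct repeat, a pair of AGGTCA with 4 bases between them (0.0152%), were in none of the 8. A single AGGTCA, which the direct repeat contains and 14% of all windows hold, occurred in 4 (Saa1, Saa2, Saa4 and Hpx), and TATAAA, in 12.4% of all windows, in Orm2 and Orm3. A match is a description of the letters, not a binding site. Printed below are the 150 bases from 250 to 101 before the start for the 5 genes with the C/EBP motif in that stretch, 5′ to 3′ on the strand of the gene, since these pairs of paralogs and Lcn2 differ in the values that follow. Capitals mark the C/EBP motif.
Saa1, chr7:46743081-46743230, minus strand: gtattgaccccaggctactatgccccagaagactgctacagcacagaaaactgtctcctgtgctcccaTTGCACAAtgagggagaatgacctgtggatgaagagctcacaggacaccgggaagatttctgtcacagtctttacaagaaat
Saa2, chr7:46751583-46751732, plus strand: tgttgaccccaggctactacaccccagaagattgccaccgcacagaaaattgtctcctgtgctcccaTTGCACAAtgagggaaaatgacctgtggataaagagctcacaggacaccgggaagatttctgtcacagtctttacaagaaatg
Orm2, chr4:63362199-63362348, plus strand: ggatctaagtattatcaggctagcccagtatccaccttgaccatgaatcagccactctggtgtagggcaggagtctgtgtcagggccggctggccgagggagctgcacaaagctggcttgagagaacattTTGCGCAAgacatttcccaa
Orm3, chr4:63355908-63356057, plus strand: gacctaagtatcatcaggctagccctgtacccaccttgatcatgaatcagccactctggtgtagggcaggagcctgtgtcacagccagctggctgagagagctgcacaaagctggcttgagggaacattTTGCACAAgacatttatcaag
Lcn2, chr2:32387840-32387989, minus strand: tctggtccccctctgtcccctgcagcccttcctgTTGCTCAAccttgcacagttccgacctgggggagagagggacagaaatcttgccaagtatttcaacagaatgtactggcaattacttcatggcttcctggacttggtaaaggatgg
The windows of Saa1 and Saa2 were identical at 94.8% of aligned positions and those of Orm2 and Orm3 at 85.5%. The motif began 182 and 183 bases before the starts of Saa1 and Saa2, 120 and 121 bases before those of Orm2 and Orm3, and 216 bases before that of Lcn2, all counted from the RefSeq start. GENCODE M21 places the start of Lcn2 513 bases further upstream, so the Lcn2 stretch lies within the gene in that annotation, in bases it gives to no exon.

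Values are TPM, transcripts per 1000000, which set genes of different length on 1 scale and sum to 1000000 in each liver. Depth, read off from how far apart the lowest TPM values lay, was 18.06 to 35.81 M reads (M, 1000000) per liver, and the member with the fewest reads was Orm3, with 4 in a W/F chow liver. All 10 members were tested, since each reached 1 TPM in 4 or more livers. Together they made up 0.912% ± 0.0721 (SD) of all TPM in W/W vehicle livers, 4.32% ± 0.501 in W/F vehicle livers and 3.37% ± 0.391 in F/F vehicle livers. Differences were fitted with limma on log2(TPM + 1), with 1 estimate of spread over the 9 groups, and are called at an adjusted p under 0.05 (Benjamini-Hochberg over 16638 genes). TPM must sum to a constant. The median gene itself differed between groups, by 0.52 (log2) between W/W and W/F on vehicle and by 0.70 between W/W and F/F, lower in W/W. Each comparison was therefore also made on rescaled TPM, for which the median gene is set to no change. What shifted the median gene was not tested. In whole liver, fewer cells of a type and less RNA per cell cannot be told apart.

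Single livers in 3 groups stood apart from their group in these genes: W/W chow replicate 3, W/F chow replicate 4 and W/F T0901317 replicate 2. In each of them all 10 members were higher than in the other 3 livers of the group, where the share of all tested genes at the top of the group was 26.7%, 27.5% and 43.6%. Saa1 was at 2291, 3791 and 1188 TPM in these livers and at most 115, 22.2 and 34.6 TPM in the others of their groups. The W/F chow liver held the highest value of all 36 for 5 members. In the W/F chow liver the neutrophil markers summed to 11.1 TPM against 1.89 to 4.18 in the other 3, the macrophage markers to 179 against 87.1 to 147 and the hepatocyte markers to 59998 against 85056 to 94658. In the W/W chow liver the same sums were 1.82 TPM against 5.24 to 29.1, 173 against 142 to 210 and 70084 against 94455 to 106727. In the W/F T0901317 liver they were 26.6 TPM against 6.47 to 9.39, 1299 against 176 to 282 and 52143 against 67741 to 75950. The hepatocyte sum was below the rest of the group in each. What set these mice apart was not tested. They also widen the spread that the fit applies to every comparison, so counts are given with and without them. They were picked after their Saa1 and Saa2 values had been seen, which lowers the spread of these genes by construction. Where a compared group holds 1 of them, leaving it out also lowers the mean of all 10 members in that group by construction.

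**Figure D1:**
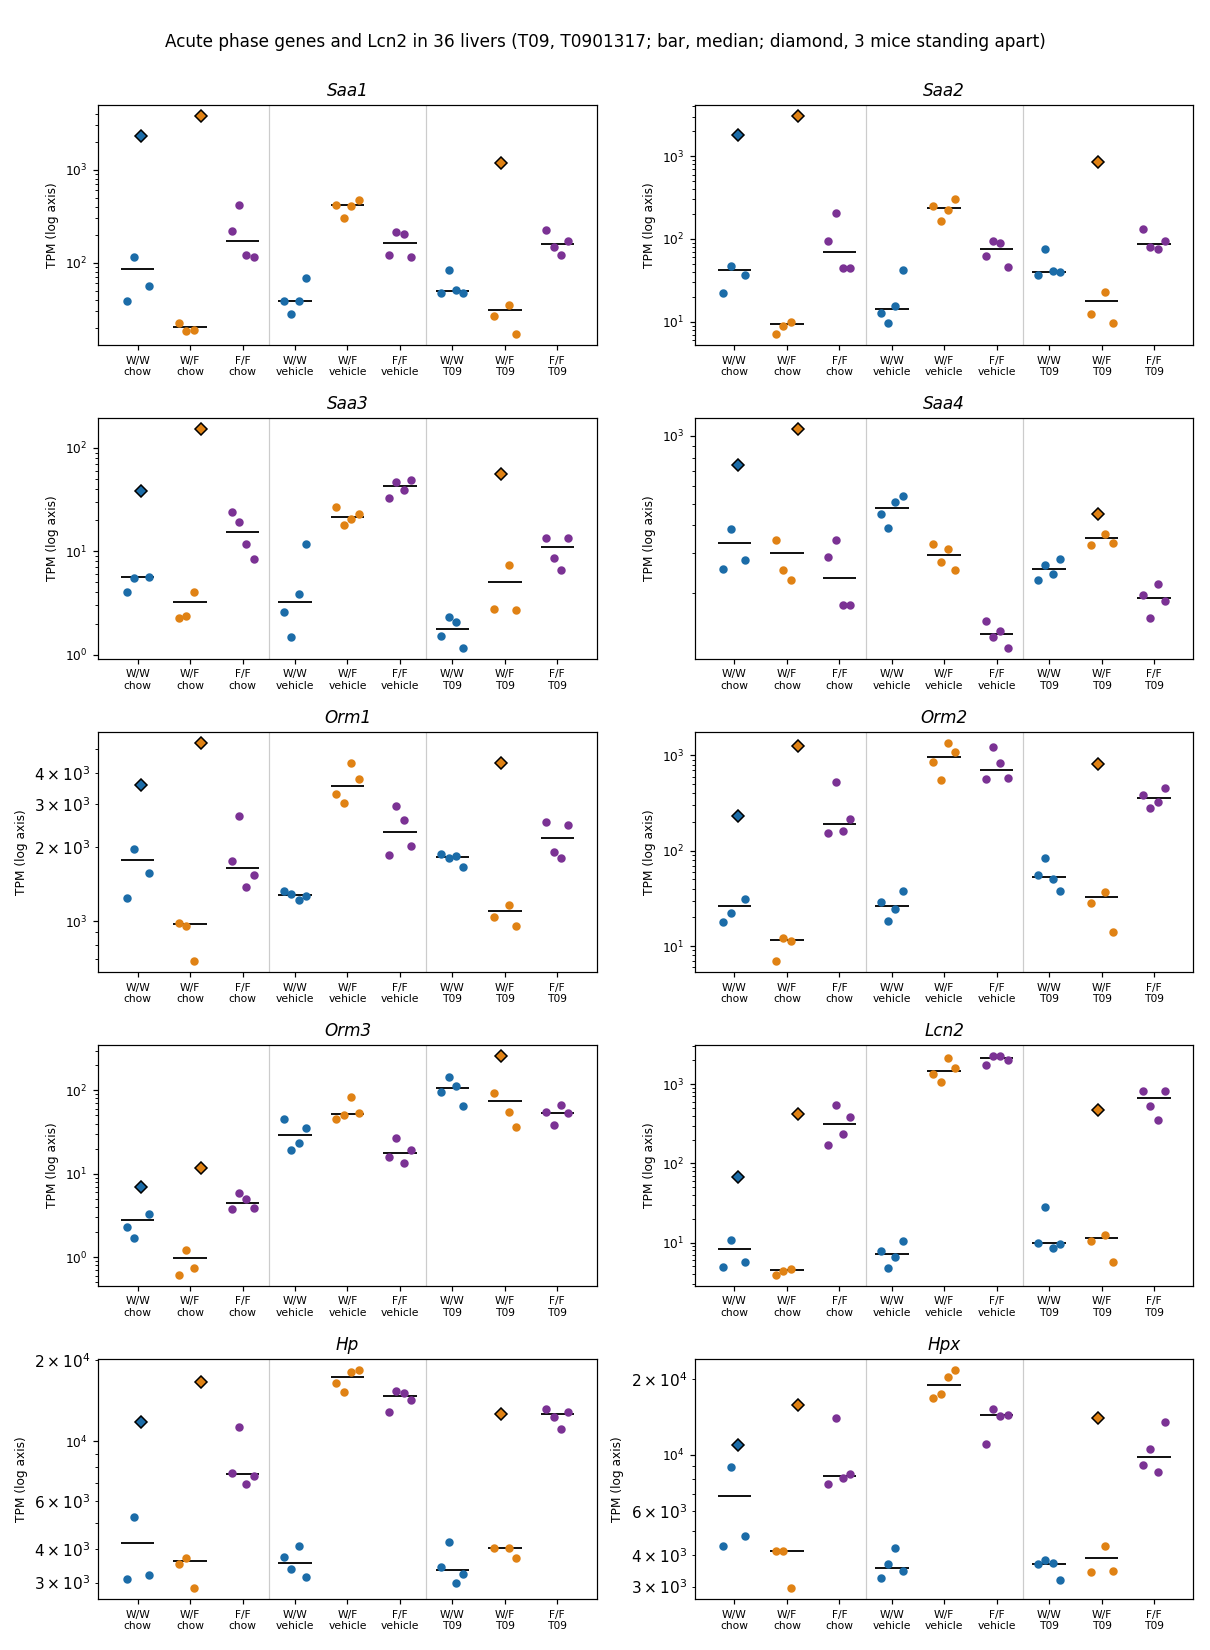
TPM of each member (log axis) in each liver of the 9 groups, coloured by genotype, with the median as a bar and the 3 mice that stand apart as outlined diamonds. Lcn2, Orm2, Hp and Hpx are high in all W/F and F/F livers on vehicle, Saa4 is lowest in F/F vehicle livers, and Orm3 is low in nearly all chow livers.

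The largest differences between genotypes were in Lcn2. On the MASH diet with vehicle Lcn2 was at 7.83, 4.82, 6.60 and 10.5 TPM in the W/W livers, at 1328, 1063, 2117 and 1600 TPM in the W/F livers and at 1745, 2252, 2238 and 2005 TPM in the F/F livers. The mutant genotypes overlapped each other, and every mutant liver lay above every W/W liver. On vehicle, 54.8% of all genes tested were likewise higher in W/F than in W/W without overlap, and 64.4% in F/F. Fitted differences from W/W were 7.50 ± 1.05 (log2, SE; 181-fold on the log2(TPM + 1) scale; adjusted p = 3.16e-07) for W/F and 7.97 ± 1.05 (250-fold; adjusted p = 5.98e-08) for F/F. Between F/F and W/F the difference was 0.47 (adjusted p = 0.794). The order of the 9 group means was F/F vehicle (2060 TPM), W/F vehicle (1527), F/F T0901317 (633), F/F chow (337), W/F T0901317 (125), W/F chow (108), W/W chow (22.3), W/W T0901317 (14) and W/W vehicle (7.44). Neighbours in that order overlapped, except W/F vehicle and F/F T0901317.

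Orm2 had the next largest difference. It was at 28.9, 18.2, 24.4 and 38.1 TPM in W/W, 859, 549, 1359 and 1075 TPM in W/F livers and 571, 1213, 830 and 583 TPM in F/F vehicle livers. Every mutant liver was above every W/W liver, and the mutant groups overlapped. Orm2 rose by 5.05 (log2; adjusted p = 1.16e-04) with 1 mutant allele and by 4.79 (adjusted p = 1.66e-04) with both. Orm1, the most abundant of the family, moved over a narrower range: 1275 ± 42.5 TPM (SD) in W/W, 3621 ± 602 TPM in W/F livers and 2347 ± 501 TPM in F/F. It rose in W/F (1.49; adjusted p = 0.00289), and in F/F its difference of 0.86 had an adjusted p of 0.0705. After rescaling the Orm1 differences were 0.83 (adjusted p = 0.105) in W/F livers and -0.00 in F/F, so its direction in F/F depends on the scale. The TPM of Orm1, Orm2 and Orm3 were also summed. The log2 of the sum was 10.38 ± 0.06 (SD) in W/W, 12.16 ± 0.30 in W/F livers and 11.60 ± 0.36 in F/F. In an exact permutation test W/F and F/F each differed from W/W with p = 0.0286 (adjusted p = 0.0914 over 16 tests).

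The scavengers of haemoglobin and haem moved together. Hp was at 3140 to 4096 TPM in W/W, 15212 to 18389 TPM in W/F livers and 12787 to 15356 TPM in F/F vehicle livers. Hpx was at 3251 to 4252, 16764 to 21707 and 11027 to 15225 TPM. In both genes the W/W livers lay below all mutant livers. Hp rose 4.76-fold in W/F (adjusted p = 1.04e-05) and 4.02-fold in F/F (adjusted p = 3.60e-05), and Hpx 5.19-fold (adjusted p = 2.54e-06) and 3.74-fold (adjusted p = 4.33e-05). These calls held after rescaling, with log2 differences of 1.04 to 1.72. The ratio of Hp to Hpx stayed between 0.587 and 1.45 in all 36 livers.

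Saa1 and Saa2 had the order of Hp and Hpx, with W/F vehicle means highest and W/W means lowest. Saa1 was at 38.5, 27.7, 38.6 and 67.7 TPM in W/W, 420, 305, 404 and 475 TPM in W/F livers and 120, 211, 202 and 116 TPM in F/F vehicle livers. The 3 genotypes did not overlap, and the heterozygotes were highest. Between F/F and W/F on vehicle, 24.4% of all genes tested were higher in F/F and 2.97% lower without overlap. Saa2 had the same order, at 9.69 to 42.7, 165 to 303 and 46 to 94.3 TPM. In W/F Saa1 rose by 3.24 (adjusted p = 0.0205) and Saa2 by 3.68 (adjusted p = 0.0169), and neither passed after rescaling (2.59 and 3.04, with adjusted p of 0.0769 and 0.0585). In F/F the differences from W/W were 1.90 (adjusted p = 0.160) and 1.97 (adjusted p = 0.185), and those from W/F -1.34 (adjusted p = 0.473) and -1.71 (adjusted p = 0.393). Without the 3 mice that stand apart these 4 differences passed, with adjusted p of 1.64e-05 and 8.81e-05 against W/W and 0.00638 and 0.00359 against W/F. The log2 of the summed TPM of Saa1 and Saa2 was 5.89 ± 0.65 (SD) in W/W, 9.29 ± 0.30 in W/F livers and 7.82 ± 0.46 in F/F. In an exact permutation test of these sums, two-sided with 70 arrangements, W/F and F/F each differed from W/W with p = 0.0286, the smallest the design allows, and an adjusted p of 0.0914 over 16 tests.

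Saa3, which macrophages also make, was highest in F/F. Its values were 2.61, 1.48, 3.83 and 11.8 TPM in W/W, 26.7, 18.1, 20.6 and 22.7 TPM in W/F livers and 32.5, 46.5, 39.5 and 48.4 TPM in F/F vehicle livers, with no overlap between the genotypes. Of all genes tested, 24.4% were likewise higher in F/F than in W/F without overlap, and 2.97% lower. The F/F rise was 3.12 (adjusted p = 0.00132) and the W/F rise 2.23 (adjusted p = 0.0197), and after rescaling the W/F difference of 1.66 no longer passed (adjusted p = 0.0979), nor did it without W/W vehicle replicate 2 (0.0648). Saa4, the constitutive amyloid gene, went the other way. It was at 447, 388, 509 and 540 TPM in W/W, 331, 274, 313 and 252 TPM in W/F livers and 150, 127, 135 and 114 TPM in F/F, again without overlap. Saa4 fell by 1.83 in F/F against W/W (adjusted p = 4.90e-06) and by 1.15 in F/F against W/F (adjusted p = 0.00946), and the W/F difference of -0.68 had an adjusted p of 0.0546. After rescaling, the differences from W/W were -1.34 (adjusted p = 9.15e-04) in W/F livers and -2.68 (adjusted p = 2.67e-08) in F/F. Orm3 was at 19.5 to 44.8 TPM in W/W, 45.9 to 82.6 TPM in W/F livers and 13.3 to 26.7 TPM in F/F, and fell by 1.59 in F/F against W/F (adjusted p = 0.0205; up to 0.0645 without W/F or F/F vehicle replicate 3).

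Of the 10 members, 8 were called higher and 0 lower in W/F against W/W on vehicle, where 61.6% of all genes tested were called higher and 6.83% lower (68.5% in all). Their median difference was 2.31, beside 0.52 for the median gene. In F/F against W/W 5 were higher and 1 lower, where 69.3% of genes were higher and 7.13% lower (76.5% in all), with a median of 1.94 beside 0.70. The share of members called higher was above that of all genes in W/F and below it in F/F. After rescaling, 4 were higher and 1 lower in W/F (27.2% and 26% of genes), and 5 were higher and 2 lower in F/F (30.2% and 28.4%). Without the 3 mice 9 were higher and 1 lower in W/F (62.1% and 6.96% of genes) and 8 higher and 2 lower in F/F (69.8% and 7.35%). Between F/F and W/F 0 were higher and 2 lower (19% and 2.3% of genes; 21.3% in all), and 5 were called without the 3 mice (23.5%). None of the 3 mice is in a vehicle group, and they enter these tests only through the shared estimate of spread. With the compared vehicle groups fitted alone, 10 of 10 were called in W/F against W/W (71.9% of genes) and 10 of 10 in F/F against W/W (81.8%). In F/F against W/F 1 was then higher, Saa3 (22.6% of genes), and 6 were lower (2.94%). By values alone, 9 members were higher and 1 lower without overlap in W/F against W/W (54.8% and 5.67% of genes). In F/F against W/W this held for 8 higher and 1 lower (64.4% and 6.09%), and in F/F against W/F for 1 higher and 6 lower (24.4% and 2.97%).

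**Figure D2:**
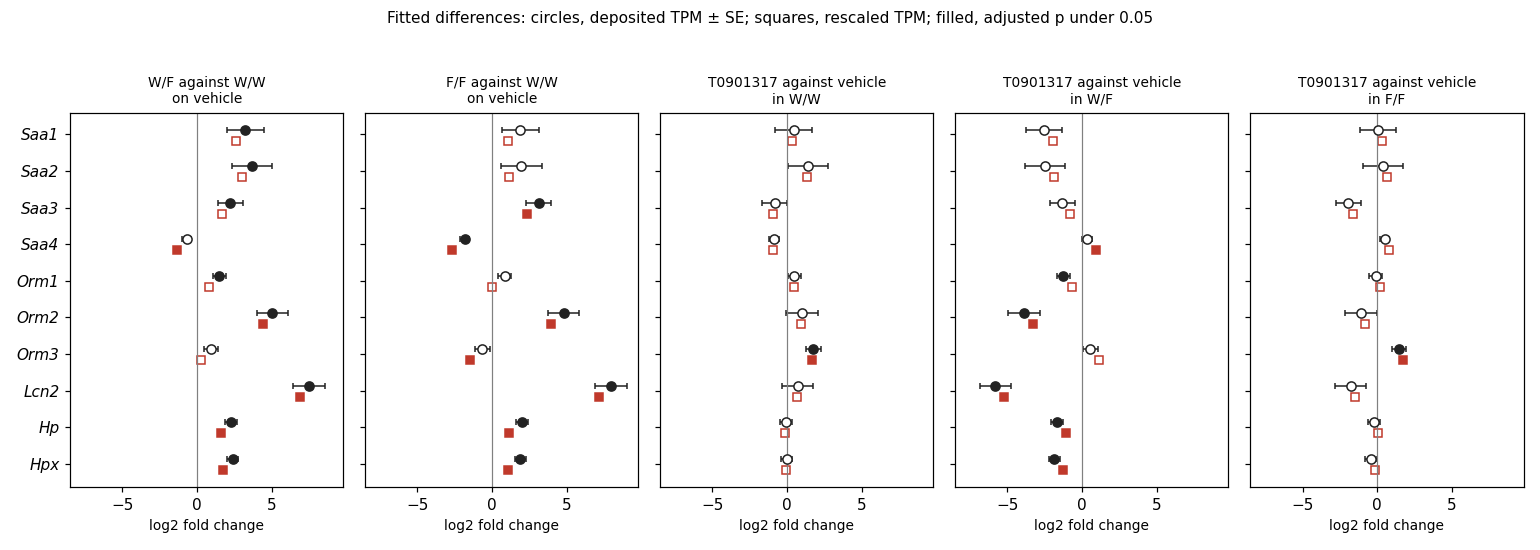
Fitted log2 fold changes of the 10 members in 5 comparisons, as circles with SE on deposited TPM and as squares on rescaled TPM, filled where the adjusted p is under 0.05. Lcn2 lies at 7.50 and 7.97 in the 2 genotype comparisons on vehicle and at -5.81 for T0901317 in W/F, and Saa4 lies left of 0 in both genotype comparisons.

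Markers of other cells moved with these genes. The summed TPM of 10 neutrophil markers was 4.55 to 10.9 in W/W, 94.1 to 173 in W/F livers and 172 to 482 in F/F vehicle livers, and 9 of the 10 were called higher in W/F (61.6% of all genes) and 10 of 10 in F/F (69.3%). Ly6g, a defining neutrophil marker, was at 0 in 3 of the 4 W/W vehicle livers, and Camp and Mmp8 in 2 each. The 8 macrophage markers summed to 223 to 377, 3065 to 4148 and 3535 to 4614 TPM. The 8 hepatocyte markers, among them albumin, summed to 71717 to 92966, 58787 to 66720 and 36101 to 39548 TPM. In every W/F and F/F vehicle liver Lcn2 alone exceeded the sum of the 10 neutrophil markers. The 6 cholangiocyte markers summed to 54.0 to 61.5, 1163 to 1591 and 2909 to 3556 TPM. The part of these cells in the differences of Lcn2, Saa3 and the other members was not tested.

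**Figure D3:**
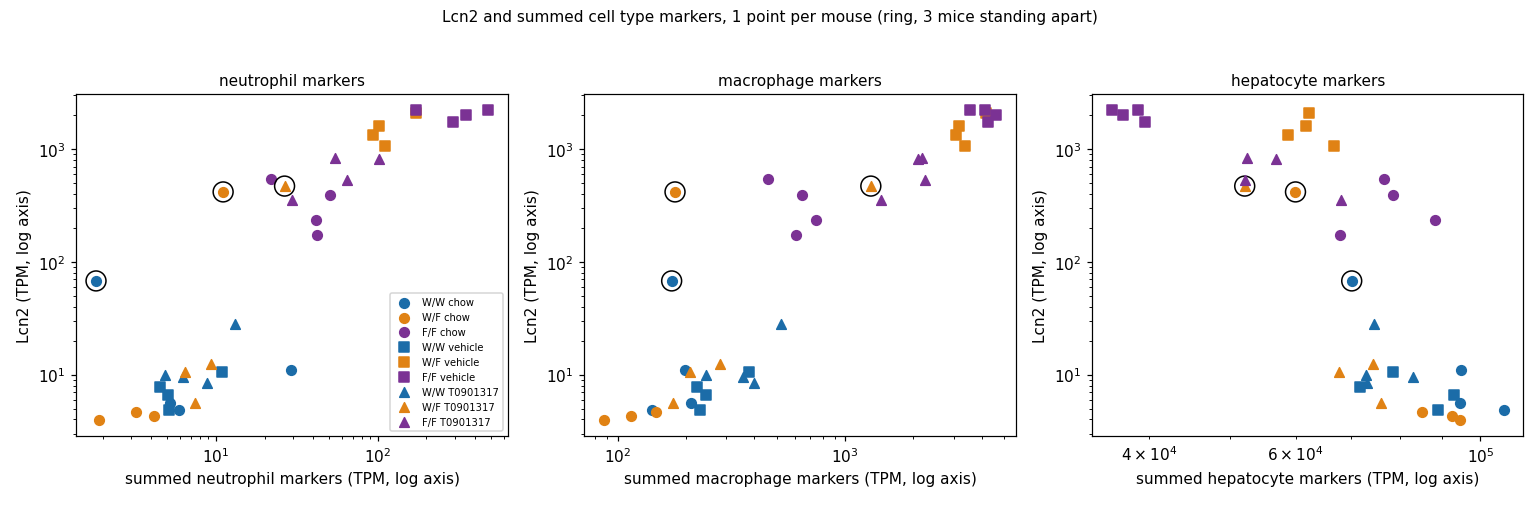
Lcn2 (TPM, log axis) against the summed TPM of 10 neutrophil, 8 macrophage and 8 hepatocyte markers (log axes) in each of 36 livers, by genotype (colour) and treatment (shape), with a ring around the 3 mice that stand apart. W/F and F/F vehicle livers are high in Lcn2 and in the neutrophil and macrophage sums together. The ringed W/W and W/F chow livers have raised Lcn2 with marker sums of 1.82 and 11.1 TPM for neutrophils.

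Lcn2 in W/F livers was at 10.5, 471, 12.5 and 5.62 TPM with T0901317, below all 4 W/F vehicle livers (1063 to 2117 TPM). Of all genes tested, 51.6% were also lower without overlap. Lcn2 fell by 5.81 (log2; 56.1-fold; adjusted p = 1.84e-05), and without the mouse at 471 TPM and the other 2 that stand apart by 7.2. Orm2 was at 28.6, 812, 36.7 and 14 TPM and fell by 3.91 (adjusted p = 0.00191), Hp by 1.69 (adjusted p = 4.13e-04), Hpx by 1.87 (adjusted p = 8.32e-05) and Orm1 by 1.26 (adjusted p = 0.0112). Apart from the liver of replicate 2, the W/F livers given T0901317 overlapped the W/W vehicle livers in Lcn2, at 5.62 to 12.5 TPM against 4.82 to 10.5 TPM, with 1 of the 3 above that range. Saa1 and Saa2 were at 26.8, 1188, 34.6 and 17 TPM and at 12.4, 848, 23.2 and 9.70 TPM. Their differences were -2.55 (adjusted p = 0.0687) and -2.48 (adjusted p = 0.107). Without that liver alone both were -3.93 and passed, and without all 3 mice the adjusted p was 9.31e-10 and 1.67e-08. The liver of replicate 2 was picked for its high Saa1 and Saa2, so leaving it out enlarges these falls by construction and gives no separate support. In W/F 0 members were called higher and 5 lower with T0901317 (6.59% and 59.3% of all genes; 65.9% in all). After rescaling 1 was higher and 4 lower (24.1% and 27% of genes), with Saa4 the one that rose (0.93; adjusted p = 0.0181) and Orm1 no longer called. Without the 3 mice 0 were higher and 8 lower (6.68% and 60.1%). Marker sums of other cells were lower too. With T0901317 the neutrophil sum in W/F was 6.47 to 26.6 TPM against 94.1 to 173 on vehicle, and the macrophage sum 176 to 1299 TPM against 3065 to 4148. Of the 8 macrophage markers, 2 were called higher and 6 lower (6.59% and 59.3% of genes). The part of these cells in the falls was not tested.

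In W/W livers Orm3 was the 1 member of 10 called for T0901317, where 10.8% of all genes were. Orm3 was at 44.8, 19.5, 23.5 and 35.3 TPM on vehicle and at 96.6, 143, 114 and 65.7 TPM with T0901317, without overlap, a rise of 1.75 (3.37-fold; adjusted p = 0.0169) that lost its call without W/W vehicle replicate 2 or 3 or W/W T0901317 replicate 2 (adjusted p up to 0.0649). Saa4 was at 388 to 540 TPM and at 227 to 282 TPM, also without overlap, with a difference of -0.88 (adjusted p = 0.0705; 8.57e-04 without the 3 mice). Orm1 was at 1221 to 1320 TPM and at 1657 to 1877 TPM, again without overlap. Its difference was 0.49 (adjusted p = 0.562; 0.00203 with the 2 groups fitted alone). Of all genes tested, 12.1% were higher and 4.42% lower without overlap. The log2 orosomucoid sum was higher by 0.55 (exact permutation p = 0.0286; adjusted p = 0.0914 over 16 tests). Lcn2 was at 10.0, 28.1, 8.46 and 9.57 TPM with T0901317, and its difference of 0.71 had an adjusted p of 0.770.

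In F/F livers Lcn2 was at 818, 530, 356 and 829 TPM with T0901317, below the 1745 to 2252 TPM of vehicle and far above the 8.46 to 28.1 TPM of W/W livers on the agonist. The difference from vehicle was -1.77 (adjusted p = 0.185), and it passed when the 2 groups were fitted alone (adjusted p = 0.00185) or without the 3 mice (adjusted p = 3.99e-04). Saa3 was at 13.5, 8.60, 6.61 and 13.4 TPM, below the vehicle livers, with a difference of -1.93 (adjusted p = 0.0719). Of all genes tested, 29.2% were lower and 4.11% higher with T0901317 in F/F without overlap. Orm3 was at 55.1, 38.7, 66.5 and 53.0 TPM against 13.3 to 26.7 TPM and rose by 1.47 (adjusted p = 0.0212; up to 0.0702 without F/F vehicle replicate 3 or F/F T0901317 replicate 3). It was the 1 member of 10 called, where 35.1% of all genes were. Hp at 11126 to 13129 TPM and Hpx at 8555 to 13537 TPM overlapped their vehicle values. The neutrophil sum in F/F was 29.4 to 102 TPM against 172 to 482 on vehicle, and the macrophage sum 1443 to 2252 TPM against 3535 to 4614. Of the 8 macrophage markers, 2 were called higher and 5 lower (3.95% and 31.2% of genes). The part of these cells in the values was not tested. With T0901317, F/F against W/W gave 5 members higher and 0 lower (56.3% and 6.96% of genes; 63.2% in all), led by Lcn2 at 5.48 (adjusted p = 4.86e-05), and 3 higher and 2 lower after rescaling (23.7% and 23%). In W/F against W/W on T0901317 0 of 10 were called (9.88% of genes), with 1 at an unadjusted p under 0.05 by limma and 2 called without the 3 mice (9.62% of genes), Saa2 and Orm1, both lower in W/F. F/F against W/F on T0901317 gave 4 higher and 1 lower (58.5% and 4.08%; 62.6% in all), and after rescaling 1 higher, Lcn2, and 1 lower, Saa4 (21.2% and 18.9%). In fits that left out 1 liver, Orm2 and Hpx were called over W/F in 1 and 4 of 8 (adjusted p up to 0.148 and 0.101). Over W/W on T0901317, Orm2 and Saa3 were called in 4 and 2 of 8 such fits (up to 0.0643 and 0.0789).

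On chow, F/F livers already had raised Lcn2. It was at 4.86, 10.9, 67.8 and 5.61 TPM in W/W, 3.93, 4.31, 4.68 and 418 TPM in W/F livers and 173, 548, 237 and 389 TPM in F/F chow livers. All F/F livers were above all W/W livers, and 1 W/F liver lay within the F/F range. Of all genes tested, 35.1% were also higher in F/F than in W/W without overlap. Lcn2 was higher by 4.52 in F/F against W/W (23-fold; adjusted p = 9.22e-04) and by 4.28 against W/F (adjusted p = 0.00175). Other cells' markers also differed on chow between F/F and W/W: the macrophage sum was 461 to 744 against 142 to 210 TPM, the cholangiocyte sum 721 to 982 against 50.1 to 61.6 TPM and the stellate and fibroblast sum 262 to 502 against 66.2 to 106 TPM. Of the 8 macrophage markers, 5 were called higher and 3 lower (43% and 3.65% of genes). The neutrophil sums, at 22.0 to 50.5 and 1.82 to 29.1 TPM, overlapped. Their part in the Lcn2 difference was not tested. Orm2 was at 154, 525, 163 and 217 TPM in the F/F group, against 17.9, 22.1, 233 and 30.9 TPM in W/W, a difference of 2.45 (adjusted p = 0.0585; 3.27 and 1.75e-07 without the 3 mice). In F/F against W/W on chow 1 member was called of 10, beside 46.7% of all genes, and 8 without the 3 mice, all higher (41.3% of genes). In F/F against W/F 2 were called, Lcn2 and Orm2, both higher (37.9% of genes higher, 41.4% in all), and 9 without the 3 mice, all higher (36.7%). The W/W and W/F chow livers left out were the highest of their groups in all 10 members. The larger counts without them follow in part from that choice and are no separate support. The Orm2 call (2.71; adjusted p = 0.0412) was lost after rescaling (0.0912) and in 6 of 8 fits that left out 1 liver (up to 0.166). In W/F against W/W 0 of 10 were called by limma (0.487% of genes), with 0 at an unadjusted p under 0.05 and 1 called without the 3 mice (0.519% of genes), Orm1, lower in W/F by value (-0.85, just past the threshold).

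Orm3 stood apart from the other members in its relation to diet. It was at 2.33, 1.71, 6.91 and 3.26 TPM in W/W, 0.620, 1.22, 0.750 and 11.9 TPM in W/F livers and 3.83, 5.85, 4.97 and 3.93 TPM in F/F chow livers, below every vehicle liver of the same genotype. Orm3 rose on the MASH diet with vehicle by 2.86 in W/W (7.24-fold; adjusted p = 2.68e-04), by 4.27 in W/F (19.3-fold; adjusted p = 1.05e-08) and by 1.78 in F/F (3.44-fold; adjusted p = 0.00278). It was the 1 member of 10 called in W/W, where 12.9% of all genes were. In W/F 6 were called, all higher (52.4% of genes higher, 61% in all), and after rescaling 5 were higher and 1 lower (27.4% and 27.5%), since Orm1 was no longer called and Saa4 was, at -0.89 (adjusted p = 0.0214). The 6 were Lcn2 by 6.55 (adjusted p = 3.36e-06), Orm2 by 4.68, Orm3, Hpx by 1.83, Hp by 1.77 and Orm1 by 1.39. In F/F 2 were higher, Orm3 and Lcn2 (2.74; adjusted p = 0.0275), and 1 lower, Saa4 (-0.85; adjusted p = 0.0227), where 46.5% and 9.27% of genes were (55.8% in all). The F/F call of Lcn2 was lost after rescaling (2.39; adjusted p = 0.0620) and without F/F chow replicate 1 or 3 or F/F vehicle replicate 2 or 3 (up to 0.0716). That of Saa4 was lost without F/F chow replicate 1 or 2 or F/F vehicle replicate 4 (up to 0.0973).

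The differences between genotypes in response were tested as interaction terms in the same fit, with shared W/W groups. The T0901317 response of W/F differed from that of W/W in 6 members, 1 higher and 5 lower (5.27% and 53.2% of genes; 58.5% in all), with Lcn2 at -6.52 (adjusted p = 4.37e-04), Orm2 at -4.93 (adjusted p = 0.00596) and Saa4 at 1.21 (adjusted p = 0.0203). The median gene was at -0.54 in this term, and after rescaling 1 member was higher and 2 lower (20.2% and 23.8% of genes). For F/F against W/W 1 member differed, Saa4 at 1.38 (adjusted p = 0.0190; 30.4% of genes called). The Saa4 difference between T0901317 and vehicle was -0.88 in W/W, 0.33 in W/F livers and 0.51 in F/F. In response to diet W/F differed from that of W/W in 7 members, all higher (49.5% of genes higher, 54.6% in all), led by Lcn2 at 7.25 (adjusted p = 1.68e-04) and Orm2 at 5.31 (adjusted p = 0.00382). After rescaling 4 were higher and 1, Saa4, lower (20.8% and 19.4% of genes), and Saa1, Saa2 and Orm1 lost their calls. Leaving out 1 liver ended that of Saa1 in 10 and that of Saa2 in 6 of 16 fits, W/W chow replicate 3 among them for both (adjusted p up to 0.122 and 0.105). For F/F 2 differed, Hpx higher by 1.44 (adjusted p = 0.0290) and Saa4 lower at -1.15 (41.5% and 4.54% of genes; 46% in all). The Hpx call was lost after rescaling (0.97; adjusted p = 0.198) and without W/W chow replicate 2 or 3, F/F chow replicate 1 or W/W vehicle replicate 1 (adjusted p up to 0.0738). That of Saa4 was lost in 8 of 16 fits that left out 1 liver, replicates 1 and 4 of W/W chow, 1 and 2 of F/F chow, 3 and 4 of W/W vehicle and 2 and 4 of F/F vehicle (adjusted p up to 0.0872).

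The counts of the remaining comparisons also moved with the spread and, where a liver left out was in a compared group, with the mean of that group. Without the 3 mice, T0901317 called 3 members in W/W (12% of genes) and 5 in F/F (37.6%). The diet then called 3 in W/W (11.7%) and 7 in F/F (56.8%). In W/F the diet called 9, all higher (50.9% of genes higher, 59.4% in all). On T0901317, F/F then differed in 9 members from W/W (64.2%) and in 9 from W/F (63.7%). The response differences became 10 for T0901317 in W/F (60%), 3 for T0901317 in F/F (32.8%) and 8 for diet in F/F (44.7%). For diet in W/F they became 9, all higher (47.4% of genes higher, 52.3% in all). With only the compared groups fitted, 5 members were called for T0901317 in W/W (12.9% of genes), 5 in F/F (35.2%) and 7 for diet in F/F (57.6%). The same fits gave 2 for F/F on chow over W/W (42.8%) and 1 over W/F (36.9%), and on T0901317 9 over W/W (68.1%), 3 over W/F (62.1%) and 1 between W/F and W/W (10.3%). Response differences of F/F were then called in 4 members for T0901317 (33.6%) and 7 for diet (46.5%). Rescaling called 2 members between F/F and W/W on chow (29.9%), and 3 and 1 in the responses of W/F to T0901317 (44.1%) and of F/F to diet (26.8%).

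The balance within a liver does not depend on scaling, and 6 ratios were computed after the data had been seen, with exact permutation tests in 8 comparisons each. The smallest p that 4 against 4 livers allow, 0.0286, gave an adjusted p of 0.0571 over the 48 tests, so none passed 0.05. Without the 3 mice, picked after their values had been seen, the same smallest p gave an adjusted p of 0.0473. The ratio of Lcn2 to the sum of Saa1 and Saa2 was 0.0950 to 0.153 in W/W vehicle livers, 1.98 to 3.37 in W/F livers and 7.37 to 12.4 in F/F. With T0901317 it was 0.0923 to 0.176, 0.211 to 0.267 and 1.81 to 3.12. The genotypes did not overlap in either condition. In F/F chow livers it was 0.556 to 2.44. The W/W and W/F chow livers that stand apart had ratios of 0.0166 and 0.0609, the lowest of their groups, so that they combined more Saa1 and Saa2 than any vehicle liver with less Lcn2 than any mutant vehicle liver. The W/F T0901317 liver that stands apart lay with its group, at 0.211 to 0.267.

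**Figure D4:**
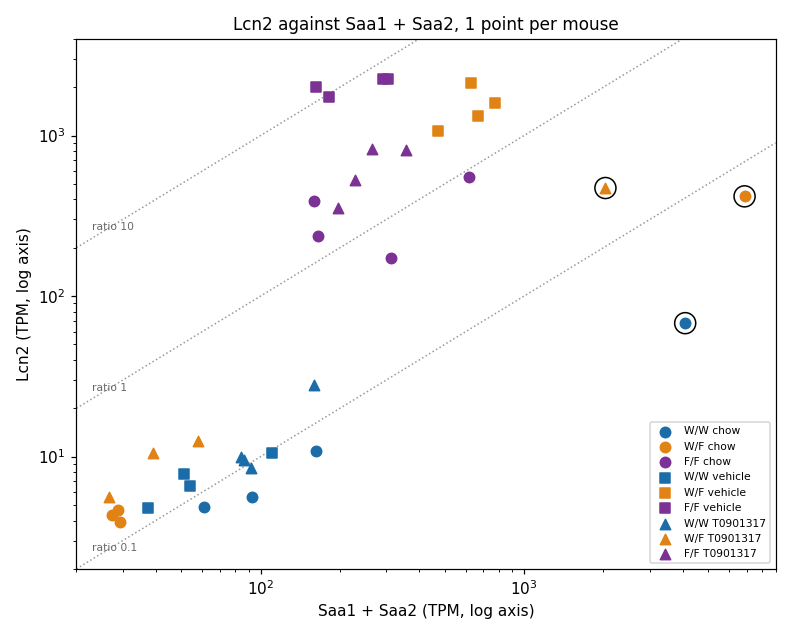
Lcn2 against the sum of Saa1 and Saa2 (TPM, log axes), 1 point per liver, by genotype (colour) and treatment (shape), with dotted lines of equal ratio and a ring around the 3 mice that stand apart. F/F vehicle livers lie at ratios of 7.37 to 12.4, W/F vehicle livers at 1.98 to 3.37, and W/W livers at 0.0166 to 0.176.

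Other ratios described the families. Orm2 made up 2.05% ± 0.613 (SD) of the summed orosomucoid TPM in W/W vehicle livers, 20.2% ± 3.58 in W/F livers and 24.7% ± 3.00 in F/F. Orm3 made up 2.29% ± 0.787, 1.26% ± 0.183 and 0.605% ± 0.151 in the same groups, the opposite order of shares, and 5.30% ± 1.40, 5.20% ± 2.00 and 2.10% ± 0.614 with T0901317. The level of Orm3 had another order on vehicle, at 19.5 to 44.8 TPM in W/W, 45.9 to 82.6 TPM in W/F livers and 13.3 to 26.7 TPM in F/F. On chow the Orm3 share was 0.320% or less in every liver, including those that stand apart. The ratio of Orm3 to Orm1 was higher with T0901317 than with vehicle in all 3 genotypes, by 1.30, 1.81 and 1.62 (log2). Orm2 and Orm3, whose upstream windows are 85.5% identical, differed in share in opposite directions between W/W and F/F on vehicle and on T0901317, while on chow both mean shares were higher in F/F (11.8% against 2.64% for Orm2, 0.231% against 0.164% for Orm3). Saa2 was 0.779 to 0.919 of Saa1 in W/W livers with T0901317 and 0.329 to 0.631 with vehicle, without overlap. The part of reads shared between the 2 genes in this ratio was not tested. The ratio of Saa3 to Saa1 and Saa2 was 0.136 to 0.299 in F/F vehicle livers, above the 0.0292 to 0.0398 of W/F and the 0.0394 to 0.107 of W/W.

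**Figure D5:**
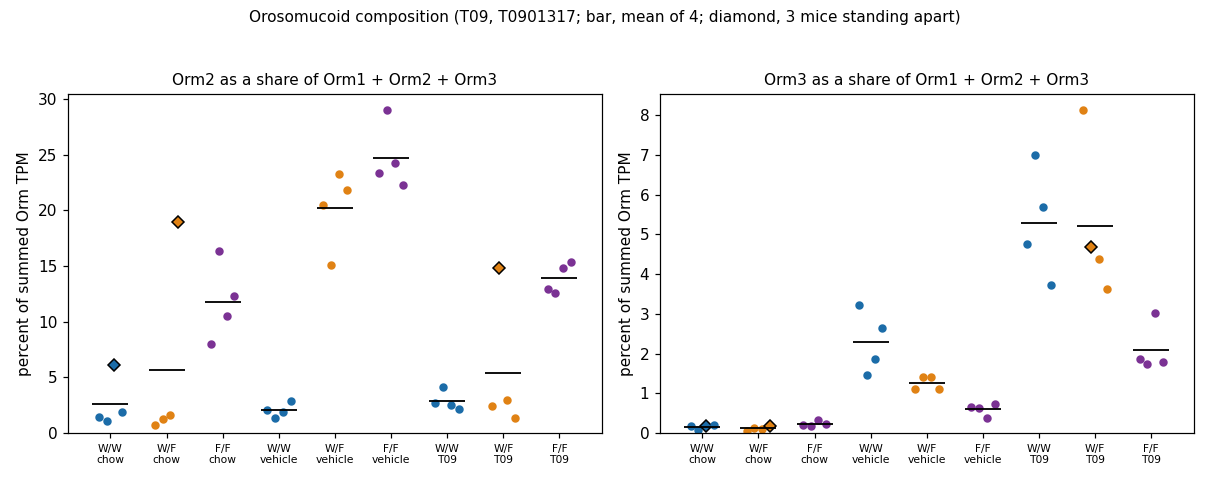
Orm2 (left) and Orm3 (right) as a percentage of the summed TPM of Orm1, Orm2 and Orm3 in each liver, with the mean of 4 as a bar and the 3 mice that stand apart as outlined diamonds. The mean Orm2 share is 2.05% in W/W and 24.7% in F/F vehicle livers, and the Orm3 share is 0.320% or less on chow.

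Other genes of the acute phase were described from 4 lists, with the 2 highest and 2 lowest differences in F/F against W/W on vehicle named from each. Of 20 other positive acute phase proteins tested, 12 were higher and 1 lower in F/F, where 69.3% of all genes were higher and 7.13% lower, with a median of 1.36 beside 0.70 for all genes. After rescaling 8 were higher and 6 lower, beside 30.2% and 28.4% of all genes. Cd14, the lipopolysaccharide co-receptor, rose by 5.65 (4.18 ± 1.47 to 255 ± 48.2 TPM; adjusted p = 1.24e-11) and the metallothionein Mt2 by 4.68 (adjusted p = 6.39e-05). The hepcidin paralog Hamp2 fell by 2.22 (37.1 ± 8.67 to 7.62 ± 3.20 TPM; adjusted p = 0.00161), and the fibrinogen chain Fgg was at -0.26 (adjusted p = 0.349), and at -1.12 after rescaling (adjusted p = 8.81e-04). Hamp2 also rose with T0901317 in W/W by 3.00 (adjusted p = 0.00102).

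Of 11 negative acute phase proteins tested, whose plasma levels drop in inflammation, 2 were higher and 7 lower in F/F against W/W on vehicle, with a median of -0.53 beside 0.70 for all genes (69.3% of genes higher, 7.13% lower). After rescaling 1 was higher and 9 lower (30.2% and 28.4% of genes). Albumin (Alb) fell by 1.35 (49754 ± 8757 to 19352 ± 1635 TPM; adjusted p = 2.23e-07) and Apoa2 by 1.69 (adjusted p = 3.98e-12). Transferrin (Trf) rose by 1.41 (adjusted p = 1.10e-10) and fetuin-A (Ahsg) by 0.85 (adjusted p = 7.39e-08), and the Ahsg difference was -0.01 (adjusted p = 0.956) after rescaling. Alb, Ttr and Apoa1 are also among the 8 hepatocyte markers.

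Among 26 tested cytokines, receptors and regulators of the acute phase, 20 were higher and 3 lower in F/F on vehicle (69.3% and 7.13% of genes), with a median of 1.11 beside 0.70, and 13 higher and 5 lower after rescaling (30.2% and 28.4%). Relb, an NF-kappaB subunit, rose by 3.25 (1.48 ± 0.789 to 21.8 ± 1.43 TPM; adjusted p = 4.10e-12) and Tnf by 2.53 (0.440 ± 0.444 to 7.17 ± 1.79 TPM; adjusted p = 5.41e-07). The interleukin 1 co-receptor Il1rap fell by 1.74 (adjusted p = 1.38e-13) and Lifr, a receptor of the interleukin 6 family, by 1.01 (adjusted p = 0.00113). Il6 itself was under the filter, at 0 to 0.298 TPM in F/F vehicle livers. Of 14 tested receptors and partners of the member proteins 11 were higher and 2 lower (69.3% and 7.13% of genes), with a median of 1.41 beside 0.70, and 7 higher and 4 lower after rescaling (30.2% and 28.4%). Tlr2, an innate receptor for amyloid A and bacterial lipoproteins, rose by 3.33 (adjusted p = 2.46e-09) and Hmox1, the haem-degrading enzyme, by 2.64 (adjusted p = 5.88e-09). Cd163, the macrophage receptor for the haptoglobin-haemoglobin complex, fell by 2.34 (4.33 ± 0.587 to 0.0515 ± 0.0534 TPM; adjusted p = 2.27e-12), opposite in direction to Hp, and Apoa1 fell by 0.53 (adjusted p = 9.62e-05).

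The genes most like each member were taken by Pearson's r of log2(TPM + 1) over the 36 livers, a description in which group differences and the 3 mice contribute to every value. Lcn2 was most like Icam1 (0.982), an endothelial and leukocyte adhesion molecule, and Tmem176a and Tmem176b (both 0.968). Orm2 and Hp were most like Tnfaip3 (0.929 and 0.941), an inhibitor of NF-kappaB signalling, and Hpx was most like Steap4 (0.931). Saa1 and Saa3 were most like the chemokine Cxcl1 (0.821 and 0.877), Saa2 the complement gene C4b (0.783) and Orm1 the lipopolysaccharide-binding protein Lbp (0.819). Saa4 had Wfdc21 (0.821), Ldhd and Aadat, and Orm3 had the cobalamin carrier Tcn2 (0.869), Sulf2 and 1190002N15Rik, none of which was among the nearest genes of the other 8.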

How the data were processed

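Gene-level TPM values of the 36 livers were deposited by the authors as 1 table of 49315 genes, with each column summing to 1000000. Per the submitters' processing notes, Trimmomatic 0.36, STAR 2.5.2b and featureCounts of Subread 1.5.2 were used with GRCm38 (mm10). Groups came from the labels. The members and all gene lists were chosen with earlier results of these data known. The 16638 genes that reached 1 TPM in 4 or more livers were fitted as log2(TPM + 1) with limma 3.58.1 (R 4.3.3) on 9 group means with a trended variance, in 19 comparisons, with Benjamini-Hochberg adjustment over all genes and a threshold of 0.05. Fold changes on this scale understate the change of low genes. Rescaling divided TPM by median-of-ratios factors (0.692 to 1.47). Family sums and ratios were compared by exact permutation tests. Depth was recovered from the steps of low TPM values, of which 92.9% to 95.0% fell within 0.1 of a whole read (20% by chance). Other genes were named as the 2 highest and 2 lowest differences of each list in F/F against W/W on vehicle, and the 3 genes most like each member by Pearson's r. The fitting script was tested on simulated data. Alternatives were another pseudocount, filters, rescaling, a replicate block, fits of the compared groups alone and leaving out livers. Same-numbered livers did not deviate together (18 of 144 pairs above 0.1).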

Additional observations from a re-analysis of the deposited data

Results flagged for a closer look

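In 90 sets of 4 livers (10 genes in 9 groups), 18 held a highest liver whose gap to the next on a log scale exceeded Dixon's 95% limit. Chance gives this in about 1 in 20 independent sets. These sets are not independent, since the genes are correlated and come from the same livers. The W/F chow liver of replicate 4 accounted for 7 of the 10 genes: Saa1 3791 TPM, Saa2 3078, Saa3 151, Orm2 1251, Orm3 11.9, Lcn2 418 and Hp 16636. The W/F T0901317 liver of replicate 2 did so for Saa1 1188, Orm1 4417, Lcn2 471, Hp 12629 and Hpx 13988 TPM. W/W chow replicate 3 was far above its group in Saa2 (1797 TPM) and Saa3 (37.9). W/W T0901317 replicate 2 was above its group in Saa1 (83.1 TPM), Saa2 (76.4) and Lcn2 (28.1), and F/F chow replicate 2 in Hpx (13967).

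The response differed between genotypes in 16 of 40 tests (10 genes, 4 interaction terms; limma, adjusted over all genes). For T0901317 against vehicle, W/F minus W/W was -6.52 for Lcn2, -4.93 for Orm2, -1.85 for Hpx, -1.75 for Orm1, -1.64 for Hp and 1.21 for Saa4, and F/F minus W/W was 1.38 for Saa4. After rescaling, 3 members were called for W/F and 1 for F/F. For the MASH diet against chow, W/F minus W/W was 7.25 for Lcn2, 5.31 for Orm2, 4.88 for Saa2, 4.29 for Saa1, 2.71 for Hpx, 2.25 for Hp and 1.99 for Orm1, and F/F minus W/W was 1.44 for Hpx and -1.15 for Saa4. After rescaling, 5 members were called for W/F and 1 for F/F.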

How the results depend on the processing

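Of the 190 member differences, 161 kept their direction and their side of the threshold after rescaling, 189 with a pseudocount of 0.1 and 188 with a 5 TPM filter. The replicate block left all 190 of 190 on the same side. Numbers in the next sentences count members called. Fitting the compared groups alone gave 5 for T0901317 in W/W and 5 in F/F, 7 for diet in F/F, on vehicle 10 and 7 for F/F over W/W and over W/F, 2 and 1 on chow, 9 and 3 on T0901317, 1 for W/F against W/W on T0901317, and 4 and 7 for the T0901317 and diet responses of F/F minus W/W. Without the 3 mice that stand apart, chosen after seeing the data, the counts for T0901317 were 3, 8 and 5 in W/W, W/F and F/F. For diet they were 3, 9 and 7, and between W/W and W/F 1 and 2 on chow and T0901317. F/F against W/W gave 8, 10 and 9 on chow, vehicle and T0901317, and F/F against W/F 9, 5 and 9. The response differences gave 10 and 3 for T0901317 in W/F and F/F, and 9 and 8 for diet. Saa2 in F/F against W/W on chow turned from -0.23 to 1.2 (adjusted p = 0.0292), where the liver left out of W/W held 1797 TPM. In W/F the Saa1 and Saa2 sum moved from -2.55 to -3.96 (T0901317) and from 2.45 to 4.42 (diet). The orosomucoid sum moved from -1.44 to -2.01 and from 1.65 to 2.38. Rescaling gave 2 between F/F and W/W on chow, 5 between W/W and W/F on vehicle, 2 for F/F against W/F on T0901317, 3 for the T0901317 response of W/F and 1 for the diet response of F/F, with sums between F/F and W/W on vehicle of 1.09 (amyloid) and 0.35 (orosomucoid). No filter gave 1 for F/F against W/F on chow, 3 for F/F against W/W and 3 against W/F on T0901317, and 0 for the diet response of F/F. A pseudocount of 0.1 gave 1 for F/F against W/F on vehicle. The cause of these changes was not tested.

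Leaving out 1 liver at a time gave, for T0901317, 0 to 1 in W/W, 5 to 8 in W/F and 0 to 1 in F/F, and for diet 1 to 1, 6 to 9 and 1 to 3. W/F against W/W gave 0 to 0 on chow, 8 to 8 on vehicle and 0 to 0 on T0901317, F/F against W/W 1 to 3, 6 to 6 and 3 to 5, and F/F against W/F 1 to 9, 1 to 2 and 3 to 7. The T0901317 response difference was called in 6 to 9 (W/F) and 1 to 1 (F/F), and that of diet in 5 to 9 and 0 to 3. The amyloid sum ran from 3.2 to 3.71 and 1.73 to 2.24 on vehicle for W/F and for F/F against W/W, from 0.58 to 1.1, -3.96 to -1.89 and 0.02 to 0.32 for T0901317 in W/W, W/F and F/F, and from -2.74 to -0.73, 1.78 to 4.42 and -0.49 to 0.16 for diet. The orosomucoid sum ran from 1.66 to 1.89 and 1.07 to 1.33, from 0.53 to 0.6, -2.01 to -1.19 and -0.38 to -0.12, and from -0.79 to -0.25, 1.3 to 2.38 and 0.47 to 0.83. Depth limited Orm3 on chow most, with as few as 4 reads.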
